A study of Trichoderma reesei with 8 samples.

Results

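Among the 9126 gene models of *Trichoderma reesei* whose sense transcripts were counted, 102 carried an annotation that contained the word transporter, permease or MFS (major facilitator superfamily). They were taken from the 1577 annotated gene models available here, all of 1 naming series of the gene catalogue, so they are part of the transporter genes of the genome and not all of them. Genes that the study had listed as very high and strongly induced on straw were to be left out, and none of them was among the 102. By the words of their annotation the genes fell into 9 classes. There were 43 MFS carriers with no substrate given, 14 carriers of metals and inorganic ions, 13 ABC (ATP-binding cassette) transporters and 11 amino acid carriers. There were also 7 sugar carriers, 7 carriers of organic or fatty acids, 2 carriers of other nitrogen compounds and 2 nucleotide sugar carriers. The last 3, called handling proteins here, were grouped by the words chaperone, regulator or packing in their annotation. Of the MFS carriers and sugar carriers, 35 had annotations that spell the family name MSF. The genes lay on 20 of the 72 scaffolds, and their transcripts were between 378 and 4689 bases long with a median of 1551. They are named here by their transcript ID.

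The strain was the wild type QM6a, a filamentous fungus known for its secreted cellulases, and RNA came from whole mycelia of shaken liquid cultures at 28 °C in minimal medium. The first condition, 48 h glucose, was growth from spores for 48 h with 1% glucose and had 3 libraries. For the second, 24 h straw, mycelia of that kind were filtered off, washed and kept for 24 h in fresh medium with 1% wheat straw, again with 3 libraries. For the third, 5 h glucose, glucose was added to straw cultures to 1% for 5 h, with 2 libraries, so that the straw was still present and the mycelia were older. The study asked which genes respond to straw and which respond to the return of glucose. Transfer, washing and culture age changed together with the carbon source and cannot be told apart from it.

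Fungal mycelia take up small molecules through carriers in the plasma membrane, and move others between cytosol, vacuole, mitochondria and Golgi. MFS proteins carry sugars, organic acids, metals, drugs and other solutes through a single chain, often together with protons. ABC transporters spend ATP to move lipids, conjugates, peptides or toxic compounds. A fungus that digests plant cell walls outside its cells depends on sugar carriers for the products, and glucose is the carbon source that such fungi generally take first.

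Gene reads numbered between 1337099 and 1704969 in the 48 h glucose libraries, between 2473359 and 2997433 in the straw libraries, and 798550 and 950244 in the 5 h glucose libraries. The median of the 102 genes was between 5.5 and 60 reads in a library, so that low genes were measured with least precision after 5 h glucose. Straw libraries 1 and 3 were closer to each other than to library 2: among the 49 of these genes with 50 or more reads in each straw library, log2 ratios had a median size of 0.0822 for libraries 1 and 3, 0.246 for 1 and 2 and 0.241 for 2 and 3. The corresponding values were between 0.180 and 0.307 for the 25 such genes of 48 h glucose and 0.207 for the 15 such genes of 5 h glucose. P values below measure the spread between these libraries, which the study describes as independent cultures.

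Most of the genes were low, and fewer were low on straw than in either glucose condition. The median of the mean RPKM (reads relative to transcript length and to the mapped reads of the library) was 0.435 for 48 h glucose, 2.17 for straw and 0.350 for 5 h glucose, against 2.24, 4.92 and 1.76 over all genes. A mean RPKM of 10 or more was reached by 6 genes with 48 h glucose, 16 with straw and 4 with 5 h glucose, while 65, 33 and 70 stayed under 1. The median over all genes was also highest on straw, where gene reads were a larger part of the library total behind the RPKM. Counts of genes by RPKM thus depend on that total too. In a bulk sample, fewer cells with a transcript and less of it per cell cannot be told apart. 12 genes had no read in any 48 h glucose library and 12 had none in either 5 h glucose library, compared with 2 that had none on straw. At most 3 reads in every library, the limit below which a level is called not detectable here, were found for 29 genes (48 h glucose), 11 genes (straw) and 36 genes (5 h glucose). 24 genes were at that limit in both glucose conditions, and 13 of these had more than 3 reads in every straw library. Straw libraries had the most gene reads, and 5 h glucose had the fewest reads and 1 library less. A limit in reads is thus easier to pass on straw, and these counts of genes depend on depth. Over all genes, neither the counts by reads nor those by RPKM were taken. Transcript 69679, an ABC transporter, had 0 reads in all 8 libraries.

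**Figure D1:**
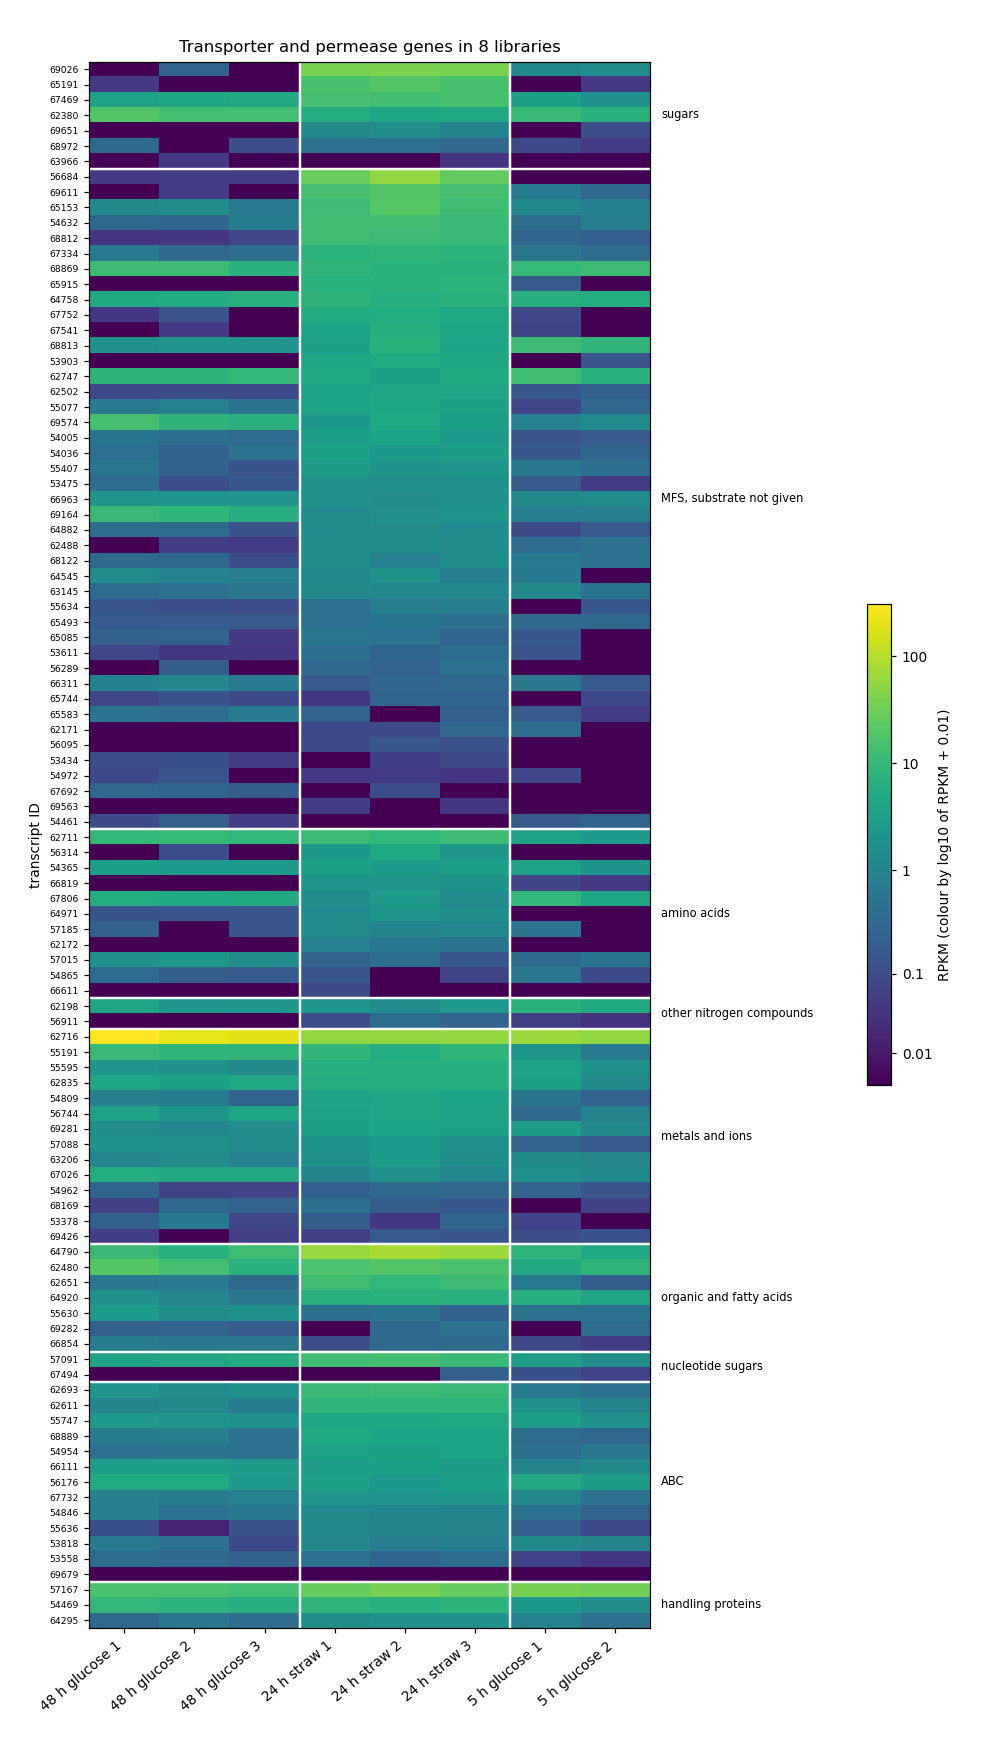
RPKM of the 102 genes (rows, by transcript ID, grouped by class and sorted within a class by their mean on straw) in the 8 libraries (columns); colour runs with the log10 of RPKM + 0.01. The sugar carriers 69026, 65191 and 67469 and much of the upper part of the MFS class were brighter in the 3 straw libraries, and the copper transporter 62716 was the brightest row at 48 h glucose, with a mean of 234 RPKM.

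The 102 genes together held 0.491% ± 0.0529 (SD, n = 3) of the summed RPKM of all genes at 48 h glucose. On straw the share was 0.436% ± 0.0127 (n = 3), and it was 0.279% ± 0.00809 (n = 2) at 5 h glucose. Counted as reads and not per length, the shares were 0.378%, 0.467% and 0.316%, so the order of 48 h glucose and straw depended on the unit. What filled the share differed between the conditions. Carriers of metals and ions held 60.1% ± 2.51 of the genes' RPKM with 48 h glucose, 16.2% ± 1.3 with straw and 31.6% ± 0.300 with 5 h glucose. For the MFS carriers with no substrate given the values were 13.2% ± 0.972, 31.3% ± 2.17 and 21.5% ± 0.996, for the sugar carriers 4.61% ± 0.366, 13.2% ± 0.662 and 5.74% ± 0.267, and for the organic and fatty acid carriers 6.41% ± 0.345, 18.0% ± 0.353 and 8.89% ± 0.524 (SD, n = 3, 3 and 2). Most RPKM of the metal and ion class came from 1 gene, the copper transporter 62716. Its mean was 234 of a class sum of 265 at 48 h glucose, 55.2 of 93.9 on straw and 58.6 of 72.1 at 5 h glucose. Counted as reads, that class held 0.126%, 0.0478% and 0.0518% of all gene reads. The top 3 genes of a condition held 60.5% (48 h glucose), 27.9% (straw) and 45.8% (5 h glucose) of the genes' RPKM. They were 62716, 62380 and 57167 in the first condition, 64790, 62716 and 69026 in the second and 62716, 57167 and 68869 in the third.

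**Figure D2:**
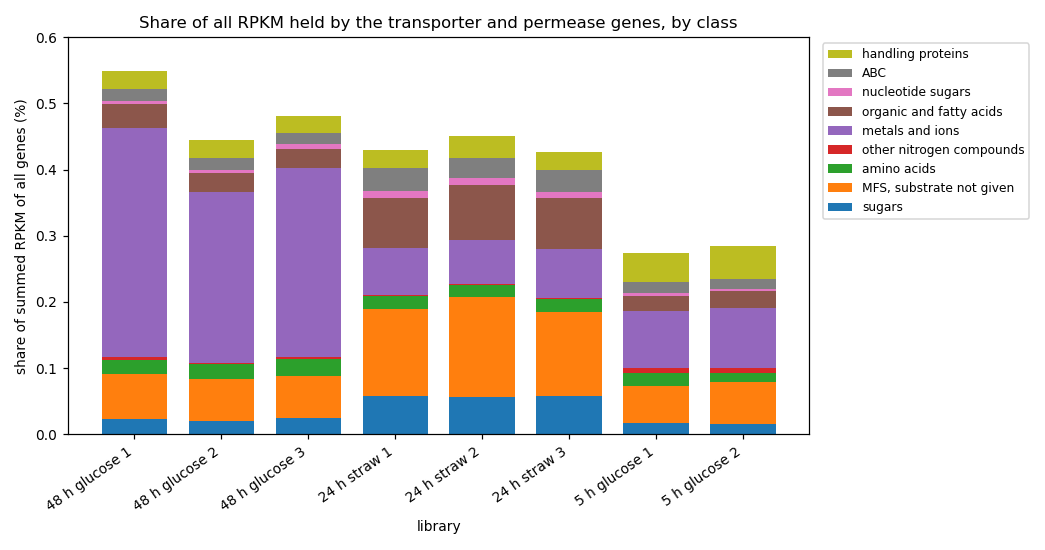
Share of the summed RPKM of all genes held by each class (stacked bars) in each of the 8 libraries. The bars reached a mean of 0.491% for 48 h glucose, 0.436% for straw and 0.279% for 5 h glucose. Metals and ions, mostly the copper transporter 62716, took most of the height for 48 h glucose.

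For the tests, genes with too few reads were set aside, which left 75 of the 102 genes and 7211 of all genes. The 27 that were set aside had at most 21 reads in any library, and a gene could pass through its straw libraries alone. With the 48 h and 5 h glucose libraries fitted alone, 55 of the 102 passed. Genes that pass through straw alone can hardly be called anything but higher there. They are part of the counts below, both for these genes and for all genes, and counts without them were not taken. A gene is called higher or lower where the edgeR quasi-likelihood test, adjusted over all 7211 genes, gave a p below 0.05. The 3 comparisons share libraries, so their calls are not independent of each other, and the values of each are given side by side.

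On straw, 40 of the 75 genes were higher than at 48 h glucose and 22 were lower, while 13 were not called. Among all genes tested, 30.6% were called higher and 28.2% lower; for these genes the shares were 53.3% and 29.3%. Their median log2 fold change was 0.88, against 0.05 over all genes tested. A called log2 fold change of at least 2 was reached by 27 of the 75 (36.0%), a number that was the same with the 4 genes that had no 48 h glucose read set at their bounds, and fitted values of that size were called for 10.9% of all genes tested. At least 5 was reached by 8 genes, and by 12 of the 75 if the fitted values of those 4 were counted. Over all 7211 genes tested, 244 (3.38%) were called higher with fitted values of at least 5. The libraries of the groups did not overlap, with straw above, for 40 genes and, with straw below, for 23 (35.6% and 31.9% of all genes tested).

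After 5 h with glucose, 18 of the 75 genes were higher than on straw and 36 were lower, with 28.5% and 30.0% of all genes tested called in those directions. The shares of these genes were 24.0% and 48.0%, and the median log2 fold change was −1.03 against −0.04. Groups did not overlap for 22 genes with 5 h glucose above and 41 with it below (34.9% and 38.5% of all genes tested). Against 48 h glucose, the 5 h glucose libraries were higher for 19 genes, lower for 16 and not called for 40. All genes tested gave 25.7% higher and 23.2% lower, close to the 25.3% and 21.3% of these genes, and the medians were 0.25 and 0.06. Non-overlap was seen for 24 genes above and 24 below (32.0% and 30.5% of all genes tested). Among the called genes, 53903 (higher) and 64971 (lower) had at most 3 reads in every glucose library. Fitted without the straw libraries, 55 of the genes were tested, with 11 higher and 15 lower at 5 h than at 48 h glucose. The shares of all genes in that fit were not taken.

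These directions are relative to the bulk of genes. Gene reads were 10.1% to 12.2% of the library total behind the RPKM with 48 h glucose, 18.2% to 20.2% with straw and 7.38% and 10.2% with 5 h glucose. Scaling by those totals, and not by gene reads with TMM factors, moved the median of all genes by 0.80 on the log2 scale for straw against 48 h glucose, by −1.27 for 5 h glucose against straw and by −0.46 for 5 h against 48 h glucose. It gave 47 of the 75 genes as higher and 11 as lower for straw against 48 h glucose (59.5% and 10.4% of all genes tested). For 5 h glucose against straw it gave 5 and 54 (6.14% and 67.3%), and for 5 h against 48 h glucose 9 and 24 (11.7% and 33.5%). All changes are therefore stated relative to other genes, and a straw level in RPKM can lie above a 48 h glucose level where the test gives no rise or a fall. For most such genes named below the TMM-normalised CPM (reads relative to the gene reads of the library) that the test used are given. Among the named genes, scaling by the library totals ended calls of straw against 48 h glucose for 55191 (−0.28), 56176 (−0.57), 62198 (−0.43) and 68869 (−0.40). It ended calls of 5 h glucose against straw for 55630 (0.26), 56176 (0.41), 57015 (0.75), 57167 (0.25), 62716 (0.08), 67026 (0.06) and 68869 (0.45), and of 5 h against 48 h glucose for 53903, 55595 (0.54), 62611 (0.50), 62747 (0.13), 67806 (0.31) and 68869 (0.06). Genes that changed direction or were called under that scaling alone are named where they are described.

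**Figure D3:**
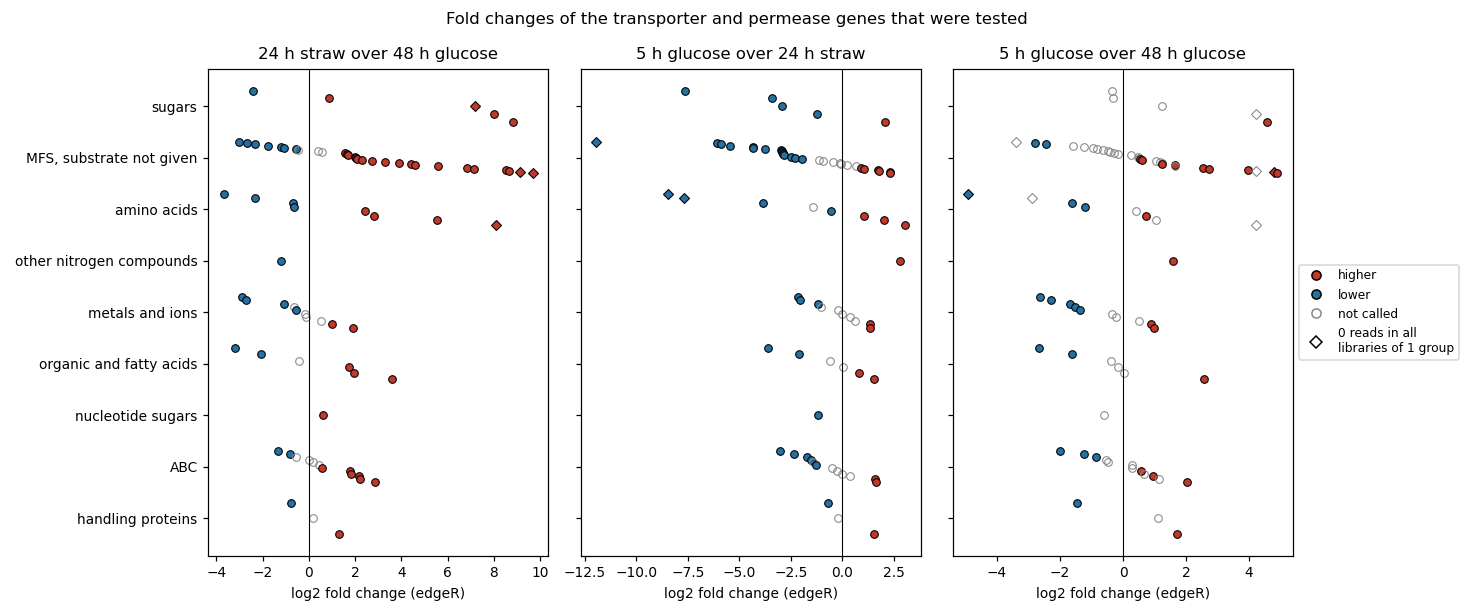
Log2 fold changes of the 75 genes tested, by class, in the 3 comparisons (panels); red points were called higher, blue points lower and open grey points not called, and diamonds mark genes with 0 reads in every library of 1 group, whose fitted value is no estimate of size. The high end of the straw comparison held sugar, MFS and amino acid carriers. That panel held 40 red and 22 blue points in all, and the middle panel held 18 red and 36 blue.

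The counts by class below stand beside the shares of all genes given above, and most classes are too small to be read against them. Of the 7 sugar carriers 5 could be tested, and on straw 4 were higher and 1 was lower than at 48 h glucose. After 5 h glucose the count against straw was 1 higher and 4 lower. The class median on straw was a log2 fold change of 7.17, or 2.30 with the gene that had no 48 h glucose read set at its lower bound. The highest sugar carrier was 69026, annotated as a sugar transporter with no sugar named. Its RPKM was 38.4, 40.2 and 38.0 in the straw libraries, 0, 0.254 and 0 at 48 h glucose and 1.24 and 1.56 at 5 h glucose. The 3 straw libraries were alike, and both 5 h glucose libraries lay between the other groups. The log2 fold change was 8.01 ± 0.40 (SE, adjusted p = 6.52e-12) for straw over 48 h glucose, −3.44 ± 0.32 (6.60e-08) for 5 h glucose over straw and 4.58 ± 0.61 (1.04e-05) for 5 h over 48 h glucose.

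Transcript 65191, annotated as a maltose permease of the MFS, had 323, 388 and 403 reads on straw, 1, 0 and 0 at 48 h glucose, and 0 and 1 at 5 h glucose. Its RPKM on straw was 15.0, 19.3 and 15.3. It was among the clearest straw genes, with both glucose conditions at the detection limit. From the reads, straw was 603-fold above 48 h glucose (95% counting interval 108 to 23827) and 218-fold above 5 h glucose (39.1 to 8630), and the adjusted p were 2.96e-12 and 9.96e-10. A second gene annotated as a maltose permease, 67469, was expressed everywhere: its RPKM was 3.78, 4.49 and 5.01 at 48 h glucose, 14.7, 13.0 and 15.4 on straw, and 3.37 and 1.87 at 5 h glucose. Its log2 fold changes were 0.88 ± 0.19 (adjusted p = 0.000516) and −1.24 ± 0.24 (0.000235) in the first comparisons, and −0.36 ± 0.25 (0.242) for 5 h over 48 h glucose, which was called under the library totals (−0.79). The sugar transporter 69651 was a weaker straw gene, with 26, 30 and 26 reads on straw, 0 in every 48 h glucose library, and 0 and 2 at 5 h glucose. Straw was at least 4.93-fold above 48 h glucose, at a limit of 3 reads per library, and 8.03-fold above 5 h glucose (2.15 to 67.5), a call that was lost without 5 h glucose library 1. 67469 and 69651 were named after their values were seen.

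The sugar class held 1 gene with the reverse order. Transcript 62380, whose annotation gives galactose permease with a question mark, was among the top 3 genes at 48 h glucose, at 18.7, 13.6 and 13.5 RPKM. It had 5.97, 4.29 and 4.77 RPKM on straw and 10.6 and 7.43 at 5 h glucose. Straw lay below both glucose conditions in every library. It fell by 2.40 ± 0.18 on the log2 scale on straw (adjusted p = 1.30e-09), was 2.09 ± 0.20 higher at 5 h glucose than on straw (7.62e-08), and differed by −0.31 ± 0.19 between 5 h and 48 h glucose (0.192), which was called under the library totals (−0.77). The remaining sugar genes, the predicted sugar transporter 68972 and the high-affinity glucose transporter 63966, had at most 9 and 1 reads in any library.

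The 43 MFS carriers with no substrate given were the largest class, and 29 of them were tested. On straw 19 were higher than at 48 h glucose and 7 were lower. At 5 h glucose 6 were higher and 16 lower than on straw, and 9 were higher and 2 lower than at 48 h glucose. The class medians were 2.03, −2.31 and 0.51. Because no substrate is annotated, these genes can be described by their pattern only.

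The class member with the highest RPKM on straw was 56684. It had 571, 1040 and 639 reads on straw, 1 in each 48 h glucose library and 0 in both 5 h glucose libraries. Its straw RPKM of 28.0, 54.7 and 25.7 put library 2 well above the others, and the gap to the glucose libraries was far larger than that spread. Straw was 406-fold above 48 h glucose (139 to 1969, adjusted p = 2.61e-11) and at least 74.9-fold above 5 h glucose (3.23e-09). Library 2 was also the highest straw library for 67541, with RPKM of 3.91, 6.43 and 4.50, and for 65153, with RPKM of 11.8, 20.0 and 12.4.

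Several MFS genes resembled 56684 in having almost no reads with glucose. Transcript 65915 had 148, 137 and 190 reads on straw, 0 in all 48 h glucose libraries, and 2 and 0 at 5 h glucose. Straw was at least 28.1-fold above 48 h glucose (adjusted p = 1.20e-09) and 46.5-fold above 5 h glucose (12.8 to 385, 4.93e-07). For 53903 the reads were 94, 112 and 115 on straw, 0 in all 48 h glucose libraries, and 0 and 3 at 5 h glucose. Its straw level was at least 19.1-fold above 48 h glucose (1.61e-08) and 21.0-fold above 5 h glucose (7.11 to 102, 9.84e-06). The test also called 53903 higher at 5 h than at 48 h glucose (0.0358), but it was at or under 3 reads in all 5 of those libraries, no fold is given, and the call was lost without any 1 of the 48 h glucose libraries or without 5 h glucose library 2, where the fitted change was 0.00. The gene 65915, which was not called there, became called without 5 h glucose library 2, at a fitted log2 value of 5.29.

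Transcript 67541 had 0, 1 and 0 reads at 48 h glucose, 86, 132 and 121 on straw, and 1 and 0 at 5 h glucose. The straw level was 183-fold (32.7 to 7265) and 66.4-fold (11.8 to 2632) above them, with adjusted p of 4.62e-09 and 1.43e-06. Transcript 67752 had 1, 3 and 0 reads at 48 h glucose, 124, 122 and 131 on straw, and 1 and 0 at 5 h glucose. Here the straw libraries were alike, the log2 fold change over 48 h glucose was 5.57 ± 0.45 (4.14e-09), and straw was 73.9-fold above 5 h glucose (13.2 to 2926, 6.36e-07). Together with 65191, these genes (56684, 65915, 67541 and 67752) had the most straw reads among the 24 genes that stayed at or under 3 reads in every glucose library.

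Some straw genes had low read numbers at 5 h glucose, in at least 1 library above those at 48 h glucose. Transcript 69611 had 287, 336 and 348 reads on straw (14.8, 18.5 and 14.6 RPKM), 0, 1 and 0 at 48 h glucose, and 8 and 6 at 5 h glucose. All 5 h glucose reads lay above the 48 h glucose reads. Straw was 525-fold above 48 h glucose (94.1 to 20771, adjusted p = 3.83e-12), 5 h glucose was 38.7-fold above 48 h glucose (5.88 to 1634, 0.000114), and the log2 fold change of 5 h glucose over straw was −3.76 ± 0.32 (1.88e-08). Transcript 68812 had 315, 276 and 333 reads on straw (12.6, 11.8 and 10.9 RPKM), 1, 1 and 2 at 48 h glucose, and 4 and 5 at 5 h glucose. Its log2 fold changes were 6.86 ± 0.32 (2.67e-12), −4.32 ± 0.32 (3.73e-09) and 2.54 ± 0.69 (0.00542) in the 3 comparisons. 62502, named after its values were seen, had 2 reads in each 48 h glucose library, 88, 85 and 110 on straw and 2 and 5 at 5 h glucose, with a log2 fold change of 4.60 ± 0.38 on straw (6.33e-09), −2.97 ± 0.42 from straw to 5 h glucose (1.01e-05) and no call between the glucose conditions (1.63 ± 0.72, 0.0722).

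A further group was read at 48 h glucose too and was higher on straw. The putative MFS transporter 67334 had 0.711, 0.299 and 0.405 RPKM at 48 h glucose, 7.92, 8.60 and 7.94 on straw, and 0.585 and 0.386 at 5 h glucose. Its straw libraries were alike and the glucose conditions overlapped in RPKM. It rose by 3.29 ± 0.23 on straw (adjusted p = 5.46e-10) and fell by 2.82 ± 0.29 from straw to 5 h glucose (1.78e-07), with no call between the glucose conditions (0.47 ± 0.37, 0.309). The permeases 54632 and 65153, named after their values were seen, reached 12.9, 12.8 and 10.9 RPKM and the values given above on straw. Their log2 fold changes were 3.92 ± 0.33 (7.60e-09) and 2.74 ± 0.25 (2.54e-08) on straw, and −2.87 ± 0.39 (5.37e-06) and −2.49 ± 0.32 (2.91e-06) from straw to 5 h glucose. Between 5 h and 48 h glucose 54632 was not called (1.04 ± 0.56, 0.132), but it was without 48 h glucose library 3 (1.73) and without 5 h glucose library 1 (1.62).

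**Figure D4:**
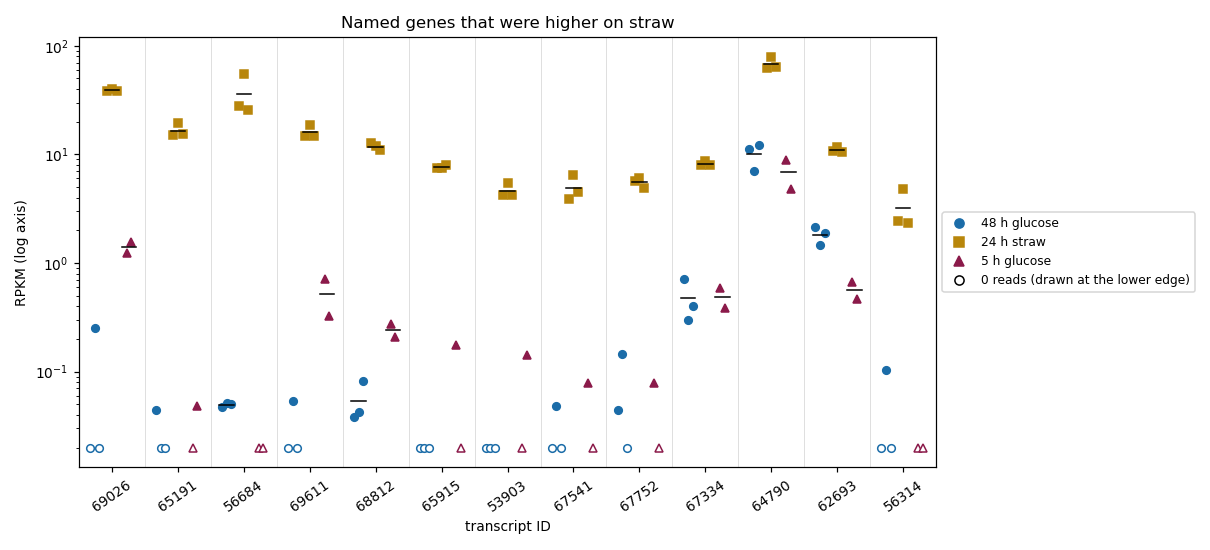
RPKM (log axis) of 13 genes called higher with straw than with 48 h glucose, in each library; filled points are libraries, black bars are group means where every library had reads, and open points at the lower edge are libraries with 0 reads. Straw libraries of 69026 sat between 38.0 and 40.2 RPKM, and those of 56684 between 25.7 and 54.7, with both 5 h glucose libraries at 0.

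MFS genes with the opposite order or with a rise after glucose were fewer. The straw levels of 62747 were the lowest of the 3 conditions: its TMM-normalised CPM were 111, 117 and 164 at 48 h glucose, 41.0, 27.6 and 46.5 on straw, and 202 and 179 at 5 h glucose. It fell by 1.75 ± 0.21 on straw (adjusted p = 7.26e-07) and was 2.30 ± 0.23 higher at 5 h glucose than on straw (1.32e-07). The call of 5 h over 48 h glucose (0.55 ± 0.22, 0.0482) lay at the threshold. It was lost in DESeq2, without a filter (0.47) and with the compared groups alone (0.53). Leaving out any 1 of 6 libraries, all but 48 h glucose 3 and straw 2, also ended it, with values between 0.43 and 0.59. Transcript 68869, among the top 3 genes of 5 h glucose, had 136, 146 and 105 normalised CPM at 48 h glucose, 61.7, 52.9 and 55.4 on straw, and 138 and 250 at 5 h glucose. Its changes were −1.19 ± 0.20 (5.84e-05) on straw and 1.78 ± 0.23 (2.63e-06) from straw to 5 h glucose, neither of them called under the library totals. It was also called higher at 5 h than at 48 h glucose (0.59 ± 0.22, 0.0361), although the libraries overlapped and the difference was 0.05 without 5 h glucose library 2. Leaving out 48 h glucose library 1 or 3 or straw library 2 also ended that call (0.64, 0.47 and 0.55), as did DESeq2 (0.59), the fit without a filter (0.51) and that of the compared groups alone (0.57).

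The MFS gene 68813 was highest at 5 h glucose. It had 20.9, 25.1 and 29.6 normalised CPM at 48 h glucose, 23.0, 49.0 and 27.9 on straw, and 157 and 175 at 5 h glucose. The 5 h glucose libraries stood far above all others, while straw overlapped with 48 h glucose (0.41 ± 0.26, adjusted p = 0.197, but called under the library totals, 1.23). Its log2 fold change was 2.32 ± 0.25 over straw (4.26e-07) and 2.73 ± 0.27 over 48 h glucose (4.18e-07). The permeases 69164 and 69574 were high at 48 h glucose and low afterwards. 69164 had 107, 94.9 and 78.9 normalised CPM at 48 h glucose, 9.57, 10.9 and 13.9 on straw, and 10.2 and 16.5 at 5 h glucose, with changes of −3.02 ± 0.22 (9.54e-10) on straw and −2.80 ± 0.31 (1.22e-06) from 48 h to 5 h glucose. For 69574 the values were 160, 94.3 and 93.4, then 16.9, 30.7 and 22.2, then 12.7 and 29.5, with −2.32 ± 0.26 (3.79e-07) and −2.45 ± 0.37 (3.18e-05). Neither was called between straw and 5 h glucose (0.22 ± 0.37, 0.637, and −0.12 ± 0.40, 0.813), while under the library totals both were called lower at 5 h glucose (−1.09 and −1.46).

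Of the 11 amino acid carriers 8 were tested, 4 were higher than at 48 h glucose and 4 were lower, and after 5 h glucose 3 were higher and 4 lower than on straw. Against 48 h glucose the 5 h glucose libraries gave 1 higher and 3 lower. The straw-high genes were low in level and had few reads with glucose. Transcript 56314 is annotated as an amino acid transporter of the PotE kind; PotE of *Escherichia coli* exchanges putrescine for ornithine. It had 50, 91 and 58 reads on straw, 0, 2 and 0 at 48 h glucose, and 0 in both 5 h glucose libraries. All straw libraries lay far above the rest, with straw 53.8-fold above 48 h glucose (14.7 to 448, adjusted p = 1.18e-06) and at least 6.61-fold above 5 h glucose (5.08e-05).

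Amino acid genes named after their values were seen included 66819, annotated after the bacterial lysine permease LysP, with 51, 49 and 57 reads on straw, 0 in every 48 h glucose library and 1 in each 5 h glucose library. Straw was at least 9.35-fold above 48 h glucose (adjusted p = 1.22e-07) and 15.4-fold above 5 h glucose (4.19 to 128, 8.28e-05). The permease 64971 had 32, 43 and 45 reads on straw, 3 in each 48 h glucose library and 0 in both 5 h glucose libraries. It rose by 2.81 ± 0.42 on straw (1.89e-05) and was at least 3.92-fold lower at 5 h glucose than on straw (3.97e-05). Its call between the glucose conditions (0.0481) rests on 3 reads in each of 3 libraries against 0, and no fold is given. Leaving out any 1 of the 8 libraries ended that call, as did DESeq2 and the fit without a filter.

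The amino acid gene with the highest mean level was 62711. Its normalised CPM were 141, 157 and 170 at 48 h glucose, 105, 80.8 and 110 on straw, and 66.0 and 69.6 at 5 h glucose, a descending order in which no groups overlapped. It fell by 0.65 ± 0.16 on straw (adjusted p = 0.00201, turned under the library totals, 0.15) and by 1.20 ± 0.21 from 48 h to 5 h glucose (0.000156). The step from straw to 5 h glucose, −0.54 ± 0.21 (0.0342), was lost without straw library 1 or 3 or without either 5 h glucose library, at values between −0.64 and −0.45. In RPKM, 48 h glucose (9.65, 10.1 and 9.44) and straw (11.3, 9.22 and 11.8) overlapped.

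Transcript 67806, an amino acid permease, had the highest log2 fold change of the 75 genes from straw to 5 h glucose. It had 5.99, 4.87 and 5.35 RPKM at 48 h glucose, 1.64, 2.58 and 1.46 on straw, and 9.37 and 4.29 at 5 h glucose. Straw was below every glucose library, and the 5 h glucose libraries differed from each other by more in RPKM than in normalised CPM (143 and 100). It fell by 2.34 ± 0.22 on straw (adjusted p = 4.67e-08) and was 3.05 ± 0.25 higher at 5 h glucose (9.97e-09). The call of 5 h over 48 h glucose, 0.71 ± 0.23 (0.0144), was lost without 48 h glucose library 2 (0.63) or 5 h glucose library 1 (0.40). A smaller change of that form was seen for 54365, named after its values were seen, with 47.6, 42.0 and 48.6 normalised CPM at 48 h glucose, 32.9, 22.9 and 30.1 on straw, and 64.7 and 56.7 at 5 h glucose. Its log2 fold changes were −0.68 ± 0.20 (0.00606) and 1.08 ± 0.23 (0.000665), both within the shift between scalings, and both turned direction under the library totals (0.12 and −0.17).

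Of the carriers of other nitrogen compounds, the cytosine-purine permease 62198 could be tested. Such permeases take up nucleobases in yeast. It had 48.8, 29.2 and 34.2 normalised CPM at 48 h glucose, 17.2, 11.3 and 19.6 on straw, and 112 and 117 at 5 h glucose. The 5 h glucose libraries were the highest and straw was the lowest, with no overlap between groups. It fell by 1.22 ± 0.25 on straw (adjusted p = 0.000317, not called under the library totals) was then 2.82 ± 0.26 higher at 5 h glucose than on straw (4.82e-08), and was 3.03-fold higher than at 48 h glucose (4.98e-05). The urea transporter 56911 had 3, 11 and 9 reads on straw, none at 48 h glucose and 1 in each 5 h glucose library, and was not tested.

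Of the 14 metal and ion carriers 10 were tested, with 2 higher and 4 lower on straw than at 48 h glucose, 2 higher and 3 lower at 5 h glucose than on straw, and 2 higher and 5 lower at 5 h than at 48 h glucose. The class was led by the copper transporter 62716, the shortest of the 102 transcripts and the one with the highest RPKM at 48 h and at 5 h glucose. Its RPKM was 304, 207 and 193 at 48 h glucose, 54.0, 55.3 and 56.2 on straw, and 63.5 and 53.8 at 5 h glucose. The 48 h glucose libraries were all above the others, and straw and 5 h glucose overlapped in RPKM. In normalised CPM, which the test used, they did not: 102 to 111 on straw against 239 and 309 at 5 h glucose. The log2 fold changes were −2.88 ± 0.18 (adjusted p = 1.76e-10), 1.37 ± 0.20 (1.25e-05) and −1.51 ± 0.21 (1.20e-05), and the middle one was not called under the library totals.

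The siderophore transporter 67026, of a kind that brings iron bound to a chelator into the cell, had the same order at a lower level. It had 84.2, 78.7 and 91.1 normalised CPM at 48 h glucose, 10.3, 17.1 and 11.4 on straw, and 30.5 and 35.4 at 5 h glucose. No groups overlapped. Its changes were −2.71 ± 0.21 (adjusted p = 2.92e-09), 1.35 ± 0.29 (0.000626) and −1.36 ± 0.26 (0.000299), and the middle one was again not called under the library totals. A second siderophore transporter and an iron transporter, 53378 and 54962, had at most 15 and 5 reads in a library and were not tested.

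Ion carriers that were lowest after 5 h glucose were led by 55191, similar to the magnesium channel CorA. It had 10.6, 8.96 and 8.62 RPKM at 48 h glucose, 8.81, 5.93 and 8.42 on straw, and 2.38 and 0.725 at 5 h glucose. Its 28 and 14 reads at 5 h glucose differed from each other by more than the libraries of the other groups did. The log2 fold changes were −1.08 ± 0.20 (adjusted p = 0.000160) on straw, −1.20 ± 0.31 (0.00258) from straw to 5 h glucose and −2.28 ± 0.30 (8.32e-06) from 48 h to 5 h glucose, and the second was lost without 5 h glucose library 2 (−0.80) and the first under the library totals. Transcript 57088, related to the sulfate and oxalate exchanger SAT-1 known from mammals, had 74, 62 and 53 reads at 48 h glucose, 70, 85 and 81 on straw, and 5 and 6 at 5 h glucose. Its normalised CPM were 43.0, 42.0 and 40.2, then 26.8, 33.0 and 25.6, then 6.35 and 7.08, in order without overlap. It fell by 2.07 ± 0.37 from straw to 5 h glucose (0.000107) and by 2.62 ± 0.36 from 48 h to 5 h glucose (1.31e-05). The straw call, −0.56 ± 0.20 (0.0226), was lost without 48 h glucose library 1 (−0.53) or straw library 1 (−0.51) or 3 (−0.47), and it turned direction under the library totals (0.25).

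The calcium transporter 56744 had 58, 34 and 66 reads at 48 h glucose, 56, 59 and 72 on straw, and 3 and 15 at 5 h glucose. Both 5 h glucose libraries were lowest but stood far apart from each other. It was lower at 5 h than at 48 h glucose (−1.68 ± 0.46, adjusted p = 0.00575), a call that was lost without 5 h glucose library 1 (−1.02). Its other differences were not called (−0.66 ± 0.29, 0.0621, on straw, and −1.03 ± 0.47, 0.0684, from straw to 5 h glucose). Without 48 h glucose library 2 or either 5 h glucose library it was called lower on straw (−0.89, −0.64 and −0.65). The fit without a filter (−0.65) and that of the compared groups alone (−0.64) also called it lower on straw. At 5 h glucose against straw it was called lower without 5 h glucose library 2 (−2.59), without a filter (−1.11) and under the library totals (−2.37). Of the genes named after their values were seen, the calcium transporter 62835 was not called with all libraries and TMM scaling (−0.17 ± 0.19, −0.19 ± 0.24 and −0.36 ± 0.24, adjusted p = 0.462, 0.506 and 0.221). Without 5 h glucose library 1 it was called lower at 5 h than at 48 h glucose (−0.80), and under the library totals it was called higher on straw (0.64) and lower at 5 h glucose than on straw (−1.39). The Ca2+ transporter 55595 was 1.00 ± 0.21 higher on straw (0.000507) and 0.99 ± 0.27 higher at 5 h than at 48 h glucose (0.0053), the latter not without 5 h glucose library 1 (0.77), and it was called lower at 5 h glucose than on straw under the library totals (−1.25). The bicarbonate transporter 54809, with 21, 18 and 7 reads at 48 h glucose, 97, 97 and 124 on straw and 8 and 6 at 5 h glucose, was 1.90 ± 0.27 higher on straw (8.45e-06) and fell by 2.14 ± 0.38 after glucose (0.000118).

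**Figure D5:**
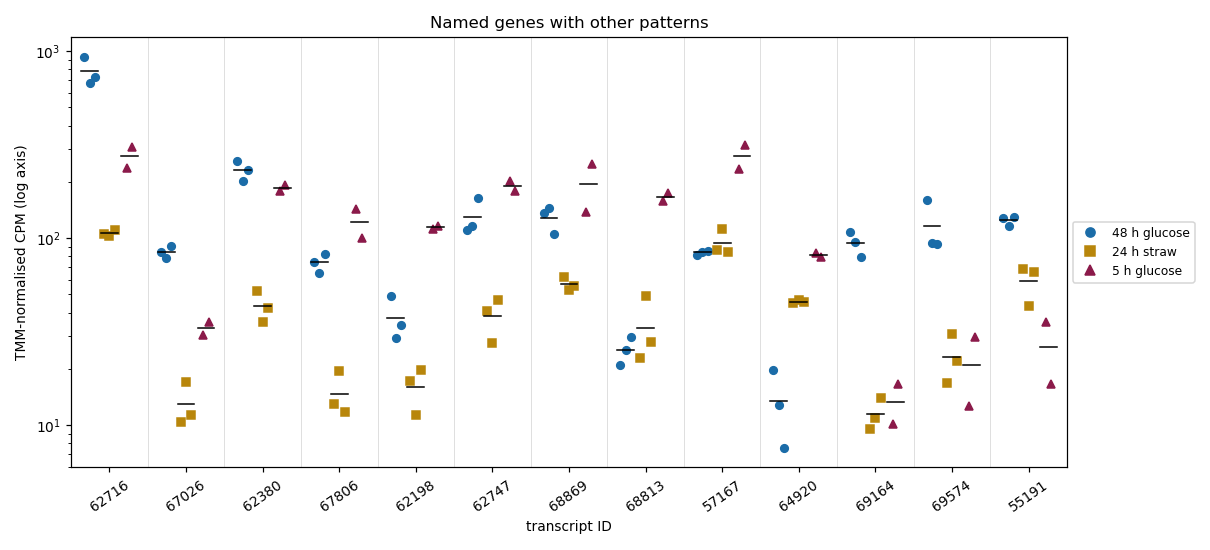
TMM-normalised CPM (log axis) of 13 genes that were highest in a glucose condition or rose after glucose, in each library; points are libraries and black bars are group means. The copper transporter 62716 lay between 677 and 934 at 48 h glucose and between 102 and 111 on straw, and 68813 reached 157 and 175 at 5 h glucose.

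Among the organic and fatty acid carriers 6 of 7 were tested, with 3 higher and 2 lower on straw than at 48 h glucose, 2 higher and 2 lower at 5 h glucose than on straw, and 1 higher and 2 lower at 5 h than at 48 h glucose. The acetate transporter 64790, whose annotation follows a yeast acetate carrier needed for normal sporulation, had the highest RPKM of all 102 genes on straw. It had 62.6, 79.2 and 63.5 RPKM on straw, 11.1, 7.0 and 12.2 at 48 h glucose, and 8.96 and 4.81 at 5 h glucose. Straw was above all glucose libraries and the glucose conditions overlapped. The log2 fold changes were 1.93 ± 0.20 (adjusted p = 1.66e-07), −2.10 ± 0.26 (1.62e-06) and −0.16 ± 0.27 (0.634). The long-chain fatty acid transporter 62651, named after its values were seen, had 12.5, 9.28 and 11.9 RPKM on straw, 0.554, 0.687 and 0.352 at 48 h glucose, and 0.659 and 0.201 at 5 h glucose. It was 3.60 ± 0.25 higher on straw (6.53e-10) and fell by 3.58 ± 0.34 after glucose (7.86e-08).

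The annotated monocarboxylate transporters, a family that carries pyruvate and lactate in animals, did not move together. Transcript 64920 had 34, 19 and 10 reads at 48 h glucose, 118, 120 and 144 on straw, and 66 and 67 at 5 h glucose. In normalised CPM these are 19.7, 12.9 and 7.59, then 45.2, 46.6 and 45.6, then 83.8 and 79.1, so that the groups were ordered without overlap. It was 1.73 ± 0.25 higher on straw than at 48 h glucose (adjusted p = 9.28e-06), 2.56 ± 0.28 higher at 5 h than at 48 h glucose (1.26e-06) and 0.83 ± 0.24 higher at 5 h glucose than on straw (0.00653). The last of these is smaller than the shift between scalings and turned direction under the library totals (−0.42). 55630, named after its values were seen, had 50, 28 and 34 reads at 48 h glucose, 8, 9 and 5 on straw, and 5 and 8 at 5 h glucose. It fell by 3.18 ± 0.36 on straw (3.98e-07) and by 1.63 ± 0.44 from 48 h to 5 h glucose (0.00562, lost without 5 h glucose library 1, −1.41). Its call from straw to 5 h glucose (1.56 ± 0.57, 0.0249) was lost without straw library 3 (1.25) or 5 h glucose library 2 (1.18). The monocarboxylate transporter 66854, not counted among the named genes, also fell on straw (−2.06 ± 0.46, 0.000729). With 1 read in each 5 h glucose library, it was 6.70-fold lower there than at 48 h glucose (1.73 to 57.4, 0.0111). It was not called between straw and 5 h glucose (0.617). The putative mitochondrial tricarboxylate transporter 62480 was named after its values were seen. It had 138, 107 and 64.5 normalised CPM at 48 h glucose, 73.9, 83.9 and 73.8 on straw, and 44.4 and 113 at 5 h glucose. No comparison was called with all libraries and TMM scaling (adjusted p = 0.161, 0.921 and 0.329), and the libraries of both glucose conditions were spread widely. Without 48 h glucose library 3 it was called lower on straw (−0.67), and without 5 h glucose library 2 lower at 5 h than at 48 h glucose (−1.28). Under the library totals it was called lower at 5 h glucose than on straw (−1.32) and than at 48 h glucose (−0.97).

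GDP-mannose transporters bring the mannose donor of protein glycosylation into the Golgi. Transcript 57091 had 3.91, 4.39 and 5.70 RPKM at 48 h glucose, 12.6, 14.2 and 10.8 on straw, and 3.14 and 1.61 at 5 h glucose. In normalised CPM the straw libraries (84.3, 90.2 and 73.1) overlapped with those of 48 h glucose (41.2, 49.5 and 74.4), and 5 h glucose was lowest (40.6 and 31.9). It was called higher on straw (0.60 ± 0.20, adjusted p = 0.0171), which was lost without 48 h glucose library 1 (0.42) or 2 (0.53) or straw library 2 (0.53), and it fell by 1.19 ± 0.27 after glucose (0.00108). The difference between the glucose conditions was not called (−0.59 ± 0.28, 0.0931), but it was without 48 h glucose library 1 (−0.77) and under the library totals (−1.02). The second gene of the class, 67494, had 4 reads in straw library 3, 1 in each 5 h glucose library and none elsewhere.

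Of the 13 ABC transporters 12 were tested. On straw 6 were higher than at 48 h glucose and 2 were lower, at 5 h glucose 2 were higher and 5 lower than on straw, and against 48 h glucose 3 were higher and 3 lower. The ABC gene with the highest mean level, 62693, is annotated after Ste6, which exports the mating pheromone a-factor in *Saccharomyces cerevisiae*. It had 2.13, 1.46 and 1.88 RPKM at 48 h glucose, 10.8, 11.8 and 10.5 on straw, and 0.670 and 0.463 at 5 h glucose. No groups overlapped, and 5 h glucose was the lowest. Its log2 fold changes were 1.78 ± 0.17 (adjusted p = 3.83e-08), −3.03 ± 0.24 (7.19e-09) and −1.24 ± 0.25 (0.000531). The PDR-type transporter 68889, of a type that exports drugs and lipids in yeast, had 0.749, 0.838 and 0.452 RPKM at 48 h glucose, 4.59, 4.02 and 3.94 on straw, and 0.382 and 0.290 at 5 h glucose. It was 1.82 ± 0.20 higher on straw (2.73e-07) and fell by 2.37 ± 0.28 after glucose (1.17e-06), and between the glucose conditions the difference was −0.54 ± 0.32 (0.174), called under the library totals (−1.04).

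ABC transporters of the MRP type, which move glutathione and other conjugates in yeast, differed among themselves. 62611, 54954 and 56176 are given as examples named after their values were seen. 62611 had 62, 73 and 43 reads at 48 h glucose, 470, 463 and 601 on straw, and 65 and 59 at 5 h glucose, and it was 2.22 ± 0.18 higher on straw (adjusted p = 5.01e-09), fell by 1.27 ± 0.21 after glucose (4.21e-05) and was 0.95 ± 0.22 higher at 5 h than at 48 h glucose (0.00198). 54954 was 2.15 ± 0.23 higher on straw (2.41e-07) and fell by 1.50 ± 0.28 after glucose (0.000182); between the glucose conditions (0.65 ± 0.33, 0.110) it was called without 5 h glucose library 1 (1.10). 56176 had another order, with 358, 325 and 163 reads at 48 h glucose, 217, 146 and 243 on straw, and 190 and 177 at 5 h glucose. It fell by 1.35 ± 0.21 on straw (1.79e-05) and was 1.64 ± 0.23 higher at 5 h glucose than on straw (9.38e-06), with the glucose conditions not called apart (0.29 ± 0.23, 0.319) and neither change called under the library totals.

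The 3 handling proteins also differed from each other. Transcript 57167 is distantly related to Shr3, a membrane protein of the endoplasmic reticulum that packs amino acid permeases into transport vesicles in *S. cerevisiae*. It was among the top 3 genes in both glucose conditions, at 15.8, 15.4 and 13.5 RPKM at 48 h glucose and 37.3 and 32.9 at 5 h glucose, with 26.6, 36.3 and 25.4 on straw. In normalised CPM straw (86.9, 112 and 83.9) overlapped with 48 h glucose (81.3, 84.8 and 85.8), and 5 h glucose (235 and 316) lay above both. Its log2 fold change was 0.17 ± 0.17 on straw (adjusted p = 0.424), 1.55 ± 0.19 from straw to 5 h glucose (1.39e-06) and 1.72 ± 0.19 from 48 h to 5 h glucose (1.42e-06). Under the library totals it was called higher on straw (0.98) and not from straw to 5 h glucose (0.25). The others were named after their values were seen. 54469, annotated as vacuolar transporter chaperone 4, a protein that makes polyphosphate in yeast, had 9.37, 7.85 and 6.13 RPKM at 48 h glucose, 8.67, 6.96 and 8.12 on straw, and 2.48 and 1.64 at 5 h glucose. Its normalised CPM were 177, 158 and 143, then 104, 78.9 and 98.1, then 57.1 and 57.8, and it fell by 0.77 ± 0.16 on straw (0.000454, turned under the library totals, 0.02), by 0.70 ± 0.21 from straw to 5 h glucose (0.00858) and by 1.47 ± 0.21 from 48 h to 5 h glucose (2.23e-05). 64295, annotated as the nitrogen permease regulator Npr2, was 1.28 ± 0.35 higher on straw (0.00414), at 6, 10 and 7 reads against 31, 33 and 41, and between the glucose conditions (1.10 ± 0.48, 0.067) it was called without 48 h glucose library 2 (1.34). From straw to 5 h glucose it was called lower under the library totals (−1.45), against −0.19 ± 0.40 (0.707) with all libraries and TMM scaling.

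Among the 102 genes, 4 pairs were direct neighbours, with no gene between them, going by the gene positions of RefSeq for assembly v2.0. The amino acid transporters 56314 and 57015 lie 208 bases apart on scaffold 3, at 48357 to 50224 and 50433 to 51645. They had opposite orders: 56314 had 50, 91 and 58 reads on straw and at most 2 in any glucose library, while 57015 had 32, 36 and 26 reads at 48 h glucose, 4, 6 and 3 on straw, and 3 and 8 at 5 h glucose. 57015 fell by 3.68 ± 0.40 on straw (adjusted p = 2.97e-07). It was 2.05 ± 0.64 higher at 5 h glucose than on straw (0.0109), which was lost without 5 h glucose library 2 (1.19), and 1.63 ± 0.48 lower than at 48 h glucose (0.0088), which was lost without 5 h glucose library 1 (−1.17).

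On scaffold 26 the MFS transporter 68812 (397066 to 399105) and the ABC transporter 68889 (400579 to 404664) lie 1473 bases apart. Both rose on straw and fell after glucose, with the values given above, and their sizes differed, at log2 fold changes of 6.86 and 1.82 on straw. On scaffold 14 the MFS permease 64545 (165217 to 166587) and the acetate transporter 64790 (168851 to 169716) lie 2263 bases apart. 64545 had 28, 17 and 15 reads at 48 h glucose, 23, 36 and 20 on straw, and 7 and 0 at 5 h glucose. It was not called with all libraries, TMM scaling and the filter (adjusted p = 0.359, 0.179 and 0.0707). Under the library totals (−2.38 and −2.04) it was called lower at 5 h glucose than in each of the other conditions. The same held without 5 h glucose library 1, which leaves 0 reads in that group. Without a filter it was called lower at 5 h than at 48 h glucose (−1.68). On scaffold 21 the Golgi GDP-mannose transporter 67494 (493271 to 494464) and the MFS transporter 67334 (495115 to 497861) lie 650 bases apart. Here the former was at 0 to 4 reads in all libraries and the latter had 279, 283 and 342 reads on straw.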

How the data were processed

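The authors sequenced RNA depleted of ribosomal RNA as 50 bp SOLiD reads, mapped them with BioScope 1.3 to the JGI assembly version 2 and assigned them to the filtered models version 2.0; the submitters' processing notes also name HTSeq. The deposited counts are sense reads per gene, not normalised. The deposited RPKM are those counts scaled to transcript length and to a library total, which was calculated back from the values. The authors report uniquely mapped reads, so genes with near-identical copies may be undercounted. Columns of other samples numbered 0.

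All 9126 genes were fitted in edgeR 4.0.16 (R 4.3.3) by the quasi-likelihood test, with TMM factors between 0.893 and 1.06, the filterByExpr filter and condition as the only term for all 8 libraries. P values were adjusted after Benjamini-Hochberg over the 7211 genes tested. Standard errors are the log2 fold change over the root of F. The study tested sense counts per condition with DEGseq, and a replicated test was used here instead. DESeq2 1.42.0, library totals, no filter, the compared groups alone, replicate blocks, left-out libraries, a threshold of 0.001, leaving out handling proteins and shares of counts were alternatives. The steps were tested on simulated data. Tables and figures used Python 3.11.15, scipy 1.17.1, numpy 2.4.6, matplotlib 3.10.9 and pandas 2.3.3.

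Genes, classes and lists were chosen with earlier results of these data known. Genes on the study's list of very high straw genes, identified by their 3 mean RPKM, were to be left out. All 102 genes matched a RefSeq locus tag of assembly v2.0 by transcript ID. Named genes were, per comparison and direction, the 5 largest called fold changes with a mean of at least 20 reads and no overlap, the 3 highest RPKM per condition, the highest gene per class, neighbouring genes, and the 5 with the most straw reads among genes at or under 3 reads in every glucose library. Other named genes, the untested ones among them, were chosen after their values were seen. Where a group had no reads, a fold is a bound at 3 reads per library. With 1 to 3 reads in all in a group, a count ratio is given with an exact (Clopper-Pearson) 95% interval. Both cover counting error only. Promoter and protein sequences were not analysed here.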

Additional observations from a re-analysis of the deposited data

How the results depend on the processing

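The 6 counts of genes higher or lower kept within 1.5 times of their value in DESeq2, without a filter, with the replicate block and without the handling proteins. Shares of all genes were taken at p below 0.05 with all libraries, under TMM scaling and under the library totals. They were not taken for the other settings, so the counts given for those cannot be read against all genes. With adjusted p below 0.001, 11 genes were higher at 5 h glucose than on straw, and 7 were higher and 9 lower at 5 h than at 48 h glucose. With the compared groups alone, 11 were higher at 5 h than at 48 h glucose, with 55 genes tested. Under the library totals 11 were lower on straw than at 48 h glucose, 5 higher at 5 h glucose than on straw and 9 higher at 5 h than at 48 h glucose. As shares of counts, the genes held 0.378%, 0.467% and 0.316%. Leaving out 1 library gave 38 to 43 higher and 20 to 25 lower on straw, 15 to 18 and 35 to 38 at 5 h glucose against straw, 14 to 18 and 11 to 16 at 5 h against 48 h glucose, and RPKM shares of 0.463% to 0.515%, 0.428% to 0.440% and 0.273% to 0.285%.

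Of the values for named genes under the alternatives, 1900 kept their side of the threshold, 71 lost a call and 34 gained one. Values called in neither fit were counted as kept whatever their direction. Another 9 turned direction with a call in at least 1 of the fits compared, all 9 under the library totals. On straw against 48 h glucose these were 62711 (0.15), 57088 (0.25), 54365 (0.12), 54469 (0.024) and 62835 (0.64). At 5 h glucose against straw they were 64920 (−0.42), 69164 (−1.09), 54365 (−0.17) and 62480 (−1.32). The cause was not tested beyond the shift of all genes. Same-numbered libraries did not deviate together (correlations −0.0265 to 0.153), so the numbers were not used as pairs; with the replicate block 40 and 22, 18 and 35, and 19 and 16 genes were higher and lower in the 3 comparisons. The block ended the call of 62711 at 5 h glucose against straw (−0.46) and those of 68869 (0.50) and 64971 at 5 h against 48 h glucose, added 1 for 64545 (−1.77) in the latter, and changed no other call of a named gene.

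Depth limits the low genes most. The limit of 3 reads is 0.95 to 1.2 normalised CPM in a straw library and 3.54 to 3.81 in a 5 h glucose library. The 5 h glucose condition has 2 libraries, and leaving out 1 of them ended 14 calls of named genes.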

Other observations

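Transporter genes outside the 102 give a view of how the choice of genes bears on the counts. The 11 transporters that the study listed among its very high straw genes, chosen on these libraries, all rose on straw and all fell after glucose, with median log2 fold changes of 7.56 and −5.91, and 7 of them were higher and 0 lower at 5 h than at 48 h glucose. Another 14 transporters came from the study's list of genes with antisense reads, and 11 of these could be tested on their sense reads. On straw 3 were higher and 6 lower than at 48 h glucose, at 5 h glucose 5 were higher and 3 lower than on straw, and against 48 h glucose 2 were higher and 5 lower. The other 1475 genes of the available annotated models, of which 1191 were tested, gave 350 higher and 315 lower on straw, 304 and 351 at 5 h glucose against straw, and 254 and 260 at 5 h against 48 h glucose.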
